A study of Mus musculus with 4 samples.

Results

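The interferon regulatory factor (IRF) genes Irf2, Irf3, Irf4, Irf5, Irf7, Irf8 and Irf9 were followed across 3 kinds of mouse innate lymphoid cell, lymphocytes without rearranged antigen receptors. The 7 genes were listed by symbol, with no measured value in the rule, and were found among the 30731 genes listed in all 4 tables of read counts. Expression was measured by RNA-seq of total RNA. Group 1 was represented by wild-type natural killer (NK) cells from C57BL/6 spleen (1 library). Group 2 was represented by wild-type ILC2 from C57BL/6 bone marrow, grown with IL-33 and IL-25 beside IL-2 and IL-7, each at 10 ng/ml (1 library). Both came from pooled mice aged 8 to 12 weeks. Group 3 was represented by MNK-3, a wild-type, ILC3-like cell line that goes back to day 15 fetal thymocytes of NIH-Swiss mice and was kept in IL-7 and IL-15 at 10 ng/ml, in 2 libraries. Cell type coincides with tissue and culture, and for MNK-3 also with strain, with origin from a single line and with the set of genes counted, so these cannot be told apart. In bulk libraries, fewer cells that express a gene and less RNA per cell cannot be told apart either.

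IRF proteins share a DNA-binding domain that reads GAAA repeats in the interferon-stimulated response element (ISRE) of antiviral genes. IRF3, IRF5 and IRF7 lie inactive in the cytoplasm until sensors of foreign nucleic acid lead to their phosphorylation, after which they induce interferon genes. IRF9 is the DNA-binding subunit of ISGF3, the complex that answers type I interferon, and IRF2 competes at the same sites, mostly as a repressor. IRF4 and IRF8 bind DNA weakly alone and act with partners such as PU.1 (Spi1) or BATF with JUN. IRF2 is needed for the maturation of mouse NK cells, IRF8 is known from NK responses to viruses, and IRF4 from cytokine production by ILC2.

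The genes fell into 3 patterns. Irf8 and Irf7, and less so Irf9, had their highest level in NK cells, a lower one in both MNK-3 libraries and their lowest in ILC2. Irf4 had its highest level in ILC2, and Irf5 was likewise highest there and lowest in MNK-3. Irf2 was highest in NK, and Irf3 differed least, by 1.30-fold between the highest and the lowest cell type in the main scaling. In the test across all genes (limma voom, Benjamini-Hochberg adjusted p under 0.05), whose only measure of spread is the MNK-3 pair, 0 of the 7 passed in each comparison. The same test called 0.00791% of all genes higher and 0.514% lower for MNK-3 minus NK, 0.00396% and 0.324% for MNK-3 minus ILC2, and 0% in either direction for NK minus ILC2.

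Promoter sequences are shown for the member that carries the letters of an ISRE and for target genes that carry them too. They come from RefSeq's table of mouse promoters (GRCm38.p6, 250 bases before to 50 after each start), in which all 7 members were matched. An ISRE was searched as a pair of GAAA half-sites with 2 bases of any kind between them, on both strands. It was found in 1 member, Irf2, and in 3.44% of the 32851 promoters of the table. Of 28 matched interferon-stimulated genes, 15 held it. A match describes letters only, and no match says only that these letters are not in this window. In the following windows, 5′ to 3′ along the gene's strand, capitals mark the ISRE matches in Irf2 and in 2 target genes, Isg15 and Ifit1, chosen after their values were seen.
Irf2, chr8:46739495-46739554, plus strand: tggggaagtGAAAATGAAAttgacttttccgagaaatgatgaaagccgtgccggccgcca
Isg15, chr4:156200859-156200918, minus strand: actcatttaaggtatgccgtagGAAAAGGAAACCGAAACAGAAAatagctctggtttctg
Ifit1, chr19:34640769-34640828, plus strand: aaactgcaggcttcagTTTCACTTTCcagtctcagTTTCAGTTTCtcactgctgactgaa

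In Irf2 the ISRE begins at position -241 from the gene's start. An IRF site joined to a PU.1 site, searched as GGAA and GAAA with 2 bases of any kind between them, was found in Irf2 alone among the members, at -247 where it overlaps the ISRE, and in 2.72% of the table. The AP-1 letters TGANTCA were in no member promoter and in 7.81% of the table. The run in Isg15 holds 3 overlapping ISRE matches, beginning at -78, -72 and -66, whereas the matches of Ifit1 lie apart, at -104 and -85, and read on the opposite strand.

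Reads in the shared genes numbered 4637812 to 25617762 per library. Levels are CPM, reads scaled to the library's total, adjusted between libraries by trimmed means of M values (TMM). MNK-3 replicate 1 stood apart: 75.8% of its reads lay outside genes, against 23.1% to 47.1% elsewhere, and 95.6% of genes had a read, against 69.6% to 76.0%. Its median log2 ratio to replicate 2 was 1.98 for genes under 1 CPM in replicate 2 and -0.99 for genes at 100 CPM or more. Each MNK-3 value is therefore given by replicate. Markers of the labelled cell types were read in each library: 6 NK markers summed to 6755 CPM in NK and at most 81.7 CPM elsewhere, and 6 ILC2 markers to 6840 CPM in ILC2 and at most 128 CPM elsewhere, although Il17rb was higher in MNK-3 replicate 1 (18.4 CPM) than in ILC2 (4.89 CPM). The 6 ILC3 markers summed to 1201 and 2907 CPM in MNK-3 and at most 267 CPM elsewhere. Kit alone held 745 and 1810 CPM of the MNK-3 sums, and had 151 CPM in ILC2 and 71.1 CPM in NK. The cytokine genes were low in MNK-3, with Il17a at 0.807 and 0.389 CPM and Il22 at 5.51 and 10.3 CPM. For Il22, named after its value was seen, replicate 1 was not above ILC2 (5.68 CPM).

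The first group comprises the factors that lie downstream of nucleic acid sensors. Irf7, the factor that amplifies type I interferon production, had 68.2 CPM in NK (327 reads), 7.80 CPM in ILC2 (59 reads) and 34.5 and 37.0 CPM in the MNK-3 replicates (1238 and 476 reads). NK lay above, and ILC2 below, the MNK-3 pair. That pair was narrow with TMM only, at 48.3 and 31.4 CPM on library totals. The ratio of NK to ILC2 was 8.75 (95% counting interval 6.61 to 11.8), and those of the MNK-3 replicates to ILC2 were 4.42 (3.40 to 5.84) and 4.74 (3.61 to 6.33). These intervals, exact binomial ones on the reads, cover counting error only. In the fit across all genes the log2 fold of NK over ILC2 was 3.12 (SE 1.52; limma voom, unadjusted p 0.0403, adjusted p 0.9997), and that of MNK-3 over ILC2 was 2.19 (SE 1.46, adjusted p 0.9997).

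Irf3, the factor that starts the interferon response in most cells, varied little with TMM. It had 50.1 CPM in NK (240 reads), 42.2 CPM in ILC2 (319 reads) and, in MNK-3, 45.7 and 64.2 CPM (1643 and 826 reads). NK lay within the range of the MNK-3 pair. ILC2 lay just under it, at a ratio of MNK-3 replicate 1 to ILC2 of 1.08 (counting interval 0.962 to 1.23). On library totals NK (51.7 CPM) and ILC2 (34.3 CPM) both lay below the MNK-3 pair (64.1 and 54.4 CPM). The fitted log2 folds were 0.15 (SE 0.89) for MNK-3 over NK, 0.40 (SE 0.87) for MNK-3 over ILC2 and 0.25 (SE 0.97) for NK over ILC2. The sign of the first turned to -0.09 with median-of-ratios scaling, so no direction is given for it.

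Irf5, which acts downstream of Toll-like receptors and MyD88, was scarcer. It had 17.5 CPM in NK (84 reads), 34.9 CPM in ILC2 (264 reads) and, in MNK-3, 9.41 and 4.04 CPM (338 and 52 reads). Both MNK-3 libraries lay below NK and ILC2. ILC2 exceeded NK by 1.99-fold (1.55 to 2.58), MNK-3 replicate 1 by 3.71-fold (3.14 to 4.37) and replicate 2 by 8.64-fold (6.39 to 11.9). The fitted log2 fold of MNK-3 over ILC2 was -2.23 (SE 0.92; limma voom, unadjusted p 0.0150, adjusted p 0.778). Irf5 shares 411 bases, 14.1% of its exons, with the opposite-strand gene Tnpo3 (118, 169, 76.3 and 108 CPM in the same order of libraries). The strand setting of the counting is not given in the sources used here, so reads in the shared bases cannot be assigned with certainty.

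The second group acts at the interferon-stimulated response element itself. Irf9, the DNA-binding subunit of ISGF3, had 77.2 CPM in NK (370 reads), 38.9 CPM in ILC2 (294 reads) and, in MNK-3, 44.9 and 67.1 CPM (1611 and 863 reads). NK was highest and ILC2 lowest, with the MNK-3 pair between them, but the steps were small next to the gap within the pair. NK exceeded MNK-3 replicate 2 by 1.15-fold (1.02 to 1.30), and MNK-3 replicate 1 exceeded ILC2 by 1.15-fold (1.02 to 1.31). The fitted log2 fold of NK over ILC2 was 0.99 (SE 0.96; limma voom, adjusted p 0.9997).

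Irf2, the repressor and NK maturation factor, had 263 CPM in NK (1261 reads), 105 CPM in ILC2 (797 reads) and, in MNK-3, 79.0 and 130 CPM (2838 and 1678 reads). NK lay above all other libraries. With TMM, ILC2 lay within the range of the MNK-3 pair, but on library totals it lay below both replicates, at 85.7 CPM. NK exceeded ILC2 by 2.50-fold (2.28 to 2.73) and the MNK-3 replicates by 3.33-fold (3.11 to 3.56) and 2.02-fold (1.87 to 2.17). The fitted log2 fold of MNK-3 over NK was -1.31 (SE 1.01; limma voom, adjusted p 0.9999). On library totals with no TMM factor the MNK-3 replicates were nearly equal, at 110.8 and 110.6 CPM, and Irf2 was then called lower in MNK-3 than in NK (fitted log2 fold -1.30, adjusted p 0.0181 in limma voom). The fitted log2 fold of MNK-3 over ILC2 was 0.01 (SE 0.96) and its sign differed between settings.

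The third group comprises the factors that act with partners in lymphoid and myeloid cells, and it held the widest differences. Irf8 had 521 CPM in NK (2496 reads), 19.0 CPM in ILC2 (144 reads) and, in MNK-3, 37.1 and 71.7 CPM (1331 and 923 reads). The NK library stood far above the rest, and the MNK-3 replicates lay above ILC2. NK exceeded ILC2 by 27.4-fold (23.1 to 32.6) and the MNK-3 replicates by 14.1-fold (13.1 to 15.03) and 7.26-fold (6.73 to 7.84). MNK-3 replicates 1 and 2 exceeded ILC2 by 1.95-fold (1.64 to 2.33) and 3.77-fold (3.16 to 4.52).

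Irf8 had the smallest p-value of the members in both comparisons with NK, but did not pass the adjusted threshold. The fitted log2 fold of MNK-3 over NK was -3.25 (SE 1.06; limma voom, unadjusted p 0.00208, adjusted p 0.212). For NK over ILC2 it was 4.77 (SE 1.23, limma voom, unadjusted p 0.000103, adjusted p 0.244). Both were called on library totals (limma voom, adjusted p 2.15e-19 and 0.00283), after thinning each library to the read total of the shallowest (0.00841 and 0.00250) and with limma trend (0.0157 and 0.00145), and the second also without the filter on low counts (0.0413). Neither was called with median-of-ratios factors or with factors from abundant genes. The order NK, MNK-3, ILC2 was the same in all 8 settings in which levels were compared, those without either MNK-3 library included.

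Irf4, which Irf8 most resembles in its mode of binding, showed the reverse order between NK and ILC2. It had 2.09 CPM in NK (10 reads), 168 CPM in ILC2 (1273 reads) and, in MNK-3, 25.8 and 0.0777 CPM (926 reads and 1 read). The ILC2 library was far above the others, and the NK value lay between those of the MNK-3 replicates. ILC2 exceeded NK by 80.6-fold (43.7 to 169), MNK-3 replicate 1 by 6.53-fold (5.99 to 7.11) and MNK-3 replicate 2 by 2165-fold (388 to 85589, from its single read).

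The MNK-3 replicates disagreed on Irf4 more than on any other member, by 332-fold (59.4 to 13119). In replicate 1, 12 of the 12036 genes with at most 1 read in replicate 2 reached the reads of Irf4, Irf4 included, while 214 reached its level per kb of exon, and the median of these genes was 26 reads. The lincRNA gene Gm29675, next to Irf4 on the opposite strand, had 649 reads in replicate 1 and 1 read in replicate 2. The 10 B cell markers summed to 87.1 and 82.6 CPM in replicates 1 and 2, with the most abundant, Ighm, at 36.6 and 77.0 CPM, and the part of such RNA in the Irf4 value was not tested.

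The fitted log2 fold of Irf4 in MNK-3 over ILC2 was -4.58 (SE 1.41; limma voom, unadjusted p 0.00112, adjusted p 0.172). It was called after thinning (adjusted p 0.0341) and with limma trend (0.00100). The SE of the limma voom fit rests on the spread pooled over genes, whereas the MNK-3 pair had a log2 SD of 3.89 for Irf4. The limma voom p-values of Irf4 therefore do not carry the gap within its pair. As a log2 ratio of CPM + 0.5, MNK-3 over ILC2 was -3.65, -8.19 without MNK-3 replicate 1 and -2.68 without replicate 2. Against NK the direction rested on replicate 1: the log2 ratio was 2.38 with both libraries, 3.34 without replicate 2 and -2.16 without replicate 1, and the fitted log2 fold was 1.68 (SE 3.38, limma voom, adjusted p 0.9999). For NK over ILC2 the fitted log2 fold was -6.26 (SE 3.28, limma voom, unadjusted p 0.0560, adjusted p 0.9997), called with limma trend (adjusted p 0.0193).

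**Figure D1:**
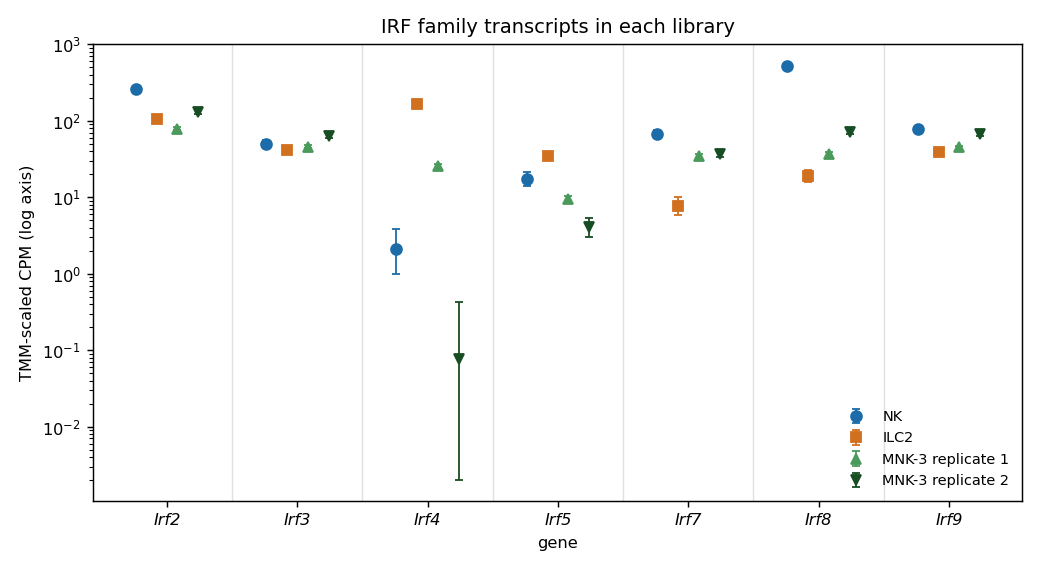
TMM-scaled CPM (log axis) of the 7 IRF genes in each of the 4 libraries, with bars for the 95% counting interval (exact Poisson), which covers counting error only. Irf8 stands at 521 CPM in NK against 19.0 in ILC2, Irf4 at 168 CPM in ILC2 against 2.09 in NK, and the MNK-3 replicates part by 332-fold on Irf4.

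Set against exon length, so that genes can be compared with each other, the leading factor differed by cell type. In NK cells Irf8 led, with 73.8 CPM per kb of exon, which was 45.3% of the sum over the 7 genes, followed by Irf2 with 35.6, and Irf4 was last with 0.425. In ILC2, Irf4 led with 34.3 CPM per kb (40.5% of the sum), followed by Irf2 with 14.2, and Irf7 was last with 2.06. In MNK-3, Irf3 and Irf2 led in both replicates, with 13.3 and 10.7 CPM per kb in replicate 1 and 18.6 and 17.6 in replicate 2. The lowest was Irf5 in replicate 1 (3.24) and Irf4 in replicate 2 (0.0158). The sum over the family was 163 CPM per kb in NK, 84.8 in ILC2 and 55.2 and 70.1 in MNK-3. By the length of the longest transcript, Irf8 was still first in NK (51.7% of the sum) and Irf4 in ILC2 (30.4%), while Irf2 passed Irf3 in MNK-3 replicate 2.

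**Figure D2:**
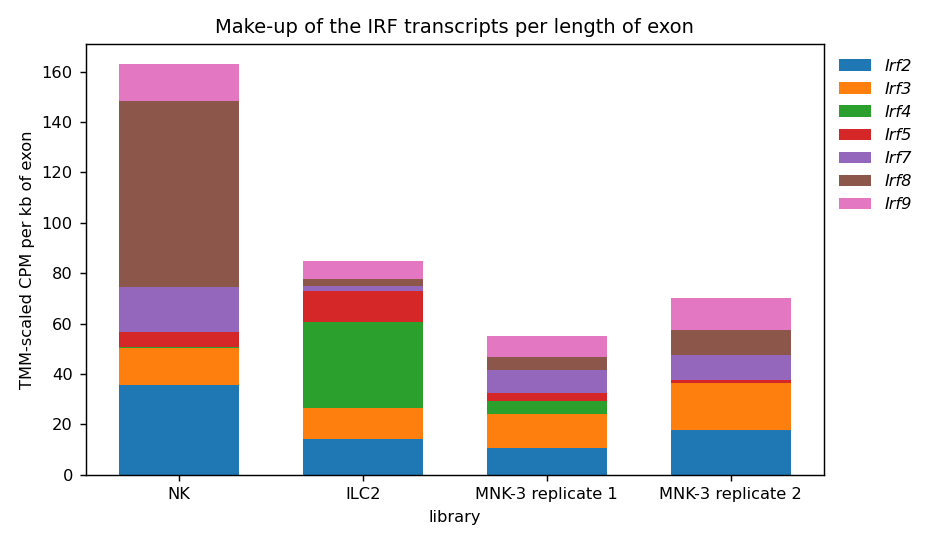
Stacked TMM-scaled CPM per kb of exon of the 7 IRF genes, with 1 bar for each library. Irf8 takes 45.3% of the NK bar, Irf4 takes 40.5% of the ILC2 bar, and in both MNK-3 bars Irf3 and Irf2 are the largest parts.

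Across all genes, limma voom was run on the 25283 genes that passed the low-count filter, among them all 7 members, with all 4 libraries in 1 fit of 3 groups. The shares of all genes called amount to 2 genes higher and 130 lower for MNK-3 minus NK, 1 and 82 for MNK-3 minus ILC2, and 0 for NK minus ILC2. At an unadjusted p under 0.05, limma voom had 1 member (Irf8) for MNK-3 minus NK, beside 3.45% of all genes, 2 (Irf4 and Irf5) for MNK-3 minus ILC2, beside 3.51%, and 2 (Irf7 and Irf8) for NK minus ILC2, beside 2.28% or 577 genes. With limma trend on the same factors 1, 1 and 2 members were called, and 435 genes in all for NK minus ILC2. Nothing in the labels says that the MNK-3 libraries came from separate cultures. The p-values thus reflect the spread of these libraries alone, pooled over genes and possibly a technical one. NK and ILC2, with 1 library each, are assumed to vary like the MNK-3 pair. For Irf4 the limma voom p-values do not carry the wide gap within its MNK-3 pair.

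By size alone, MNK-3 lay at least 2-fold higher than NK for 1 member (Irf4) and at least 2-fold lower for 3 (Irf2, Irf5 and Irf8), beside 35.0% and 7.23% of all genes tested. Against ILC2, MNK-3 lay at least 2-fold higher for 2 members (Irf7 and Irf8) and lower for 2 (Irf4 and Irf5), beside 39.8% and 8.63% of all genes. NK lay at least 2-fold higher than ILC2 for 3 members (Irf2, Irf7 and Irf8) and lower for 1 (Irf4), beside 15.7% and 15.2%. The median log2 ratio of the members was -0.92 for MNK-3 minus NK, 0.38 for MNK-3 minus ILC2 and 0.98 for NK minus ILC2, against 0.68, 0.77 and 0.05 for all genes. Relative to these medians Irf8 stood at -3.92 for MNK-3 minus NK and at 0.72 for MNK-3 minus ILC2, Irf7 at 1.35 and Irf4 at -4.42 for MNK-3 minus ILC2. The medians themselves depend on MNK-3 replicate 1, without which they were -0.07 and 0 for the MNK-3 comparisons, and other scalings moved them by -0.28 to 0.43. On library totals 12.4% of the genes called for MNK-3 minus NK were higher, against 1.52% with TMM, and 27.5% for MNK-3 minus ILC2, against 1.20%. The balance of the calls turned with the test: limma trend on the TMM factors called 547 genes higher and 216 lower (71.7% higher) for MNK-3 minus NK and 209 and 189 (52.5%) for MNK-3 minus ILC2, and after thinning the shares were 45.9% and 21.6%. For NK minus ILC2 the share higher was 63.1% on library totals, 28.8% after thinning and 29.4% with limma trend.

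**Figure D3:**
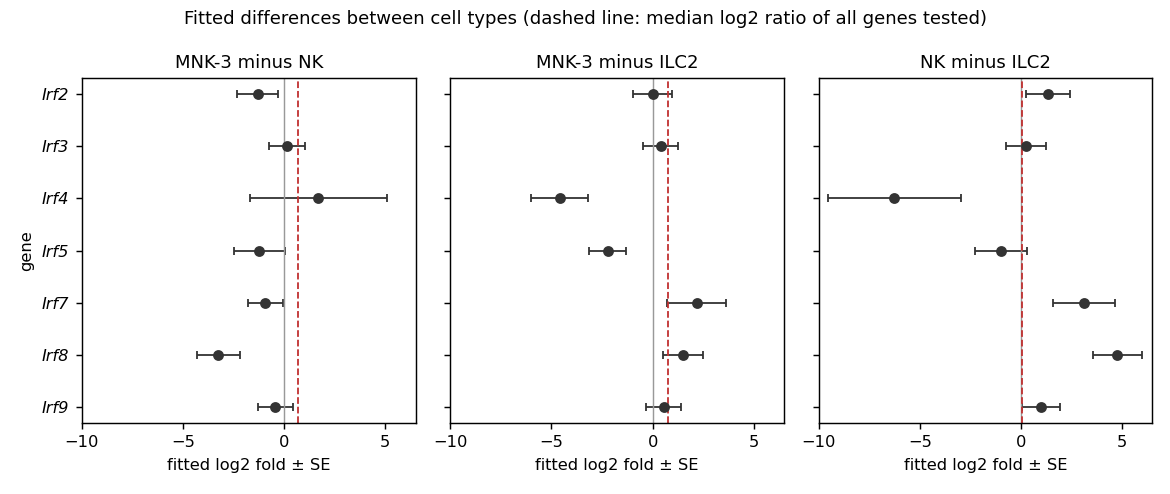
Fitted log2 folds of the 7 IRF genes (limma voom, bars are 1 SE) for the 3 comparisons, with the median log2 ratio of all genes tested as a dashed line. Irf8 lies lowest for MNK-3 minus NK (-3.25) and highest for NK minus ILC2 (4.77), and Irf4 lies lowest for MNK-3 minus ILC2 (-4.58).

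The scaling bears on the MNK-3 values of all members. With TMM, Irf2, Irf3, Irf8 and Irf9 lay higher in replicate 2 than in replicate 1, by 1.65-fold, 1.40-fold, 1.94-fold and 1.5-fold. On library totals the ratio of replicate 1 to replicate 2 was 1.00 for Irf2, 1.18 for Irf3, 0.854 for Irf8 and 1.11 for Irf9. Irf4 and Irf5 were higher in replicate 1 on both scales, and Irf7 was 1.07-fold higher in replicate 2 with TMM and 1.54-fold higher in replicate 1 on totals.

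**Figure D4:**
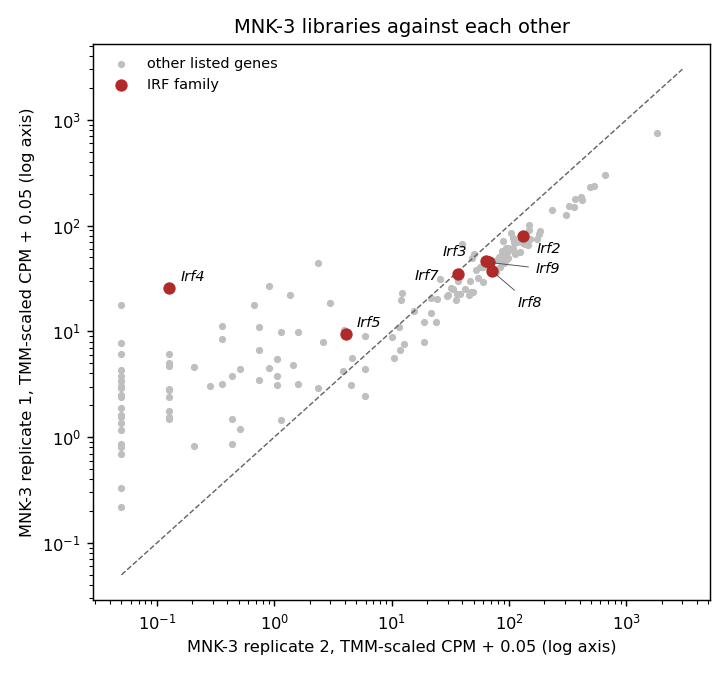
MNK-3 replicate 1 against replicate 2 in TMM-scaled CPM + 0.05 on log axes, for the IRF genes (red) and the other genes of the pathway and marker lists (grey), with the line of equality dashed. Irf4 lies far above the line at 25.8 against 0.0777 CPM, Irf5 above it, and Irf2, Irf3, Irf8 and Irf9 below it.

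Cells that carry much IRF RNA and that spleen or marrow can hold were checked by their markers, of which single genes were picked for their role or after their values were seen. B cell markers (10 genes) summed to 135 CPM in NK, 213 in ILC2 and 87.1 and 82.6 in MNK-3, of which Ighm alone held 123, 158, 36.6 and 77.0 CPM. The defining marker Pax5 stood at 1.67 CPM in NK and 0.925 CPM in ILC2, whereas Cd79b reached 46.3 CPM in ILC2, the library in which Irf4 was high, and 0.209 CPM in NK. Monocyte and macrophage markers (10 genes) summed to 19.8, 21.1, 31.3 and 3.81 CPM. Plasmacytoid dendritic cell markers (8 genes) summed to 110, 102, 128 and 106 CPM. Of these sums Tcf4 held 84.3, 56.96, 40.6 and 68.2 CPM and Bst2 7.30, 35.7, 22.2 and 30.2 CPM. Ccr9 held 44.04 CPM in MNK-3 replicate 1. Siglech had 0.626 CPM in NK and no read in ILC2, whereas Pacsin1 had 10.2 CPM in NK and 6.48 CPM in ILC2.

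Conventional dendritic cell markers (8 genes) summed to 535 CPM in NK, where Irf8 was high, against 26.7 in ILC2 and 117 and 102 in MNK-3. Of the NK sum, Itgax, which encodes the integrin CD11c that NK cells can carry too, made up 511 CPM. It was called lower in MNK-3 than in NK, with a fitted log2 fold of -6.69 (SE 1.40, adjusted p 0.00108 in limma voom). Of the other markers in NK, Snx22 stood at 5.42, Flt3 at 2.92, Clec10a at 2.71, Clec9a at 0.626 and Xcr1 and Cd209a at 0.209 CPM. Zbtb46, a defining marker, was higher, at 12.1 CPM in NK against 2.11 CPM in ILC2. The part of other cells in the Irf8 and Irf4 values was not tested.

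The partners of IRF4 and IRF8 numbered 10 measured genes, of which limma voom called 1 in any comparison. That was Batf, for MNK-3 minus ILC2, where 0.324% of all genes were called lower. Batf, the AP-1 factor that pairs with IRF4, had 198 CPM in ILC2 and 29.4 in NK, against 8.74 and 10.1 for MNK-3. Like Irf4 it was highest in ILC2, and unlike Irf4 its MNK-3 replicates lay close together. It was lower in MNK-3 than in ILC2 with a fitted log2 fold of -4.43 (SE 0.98, adjusted p 0.00522 in limma voom). By size, 3 partners lay at least 2-fold higher in NK than in ILC2 and 1 lower, beside 15.7% and 15.2% of all genes. The median log2 ratio of the list was 0.47.

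Other abundant partners were highest in NK. Jun, an AP-1 subunit that responds within minutes to many stimuli, cell handling among them, had 792 CPM in NK, 62.4 in ILC2 and 75.1 and 173 in MNK-3. Junb had 750, 479, 65.1 and 144 CPM and Jund 219, 114, 56.6 and 125 CPM, and Ikzf1, the Ikaros factor, had 1016, 504, 232 and 491 CPM. Spi1 (PU.1), named for its role at the joint ETS and IRF site and not by level, had 17.5, 27.1, 9.72 and 1.09 CPM.

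For the corepressors that bind IRF2, 0 of 3 passed in limma voom or limma trend. In limma voom 1 (Irf2bpl) had an unadjusted p under 0.05, for MNK-3 minus NK, beside 3.45% of all genes. Irf2bp2 had 137, 307, 239 and 534 CPM and Irf2bpl 251, 142, 47.7 and 81.8 CPM in NK, ILC2 and the MNK-3 replicates, and Irf2bp1 had 62.4, 43.3, 46.8 and 78.9 CPM. Of these, Irf2bpl was, like Irf2, highest in NK.

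Upstream of IRF3, IRF5 and IRF7, 0 of 9 measured sensors and 0 of 17 adaptors and kinases passed in any comparison, with limma voom or with limma trend. At an unadjusted p under 0.05 these numbers were 1 (Zbp1, for MNK-3 minus NK, beside 3.45% of all genes) and 0. Among the sensors, 4 lay at least 2-fold higher in NK than in ILC2 and 1 lower, but 3 of them (Tlr3, Tlr7 and Tlr9) had under 20 reads in both libraries. Among the adaptors and kinases 2 lay at least 2-fold higher in NK and 2 lower. The shares of all genes tested were 15.7% and 15.2%. Ddx58 (RIG-I), a sensor of viral RNA, had 153, 95.02, 89.2 and 184 CPM, and Zbp1, a sensor of Z-form nucleic acid, 87.6, 32.8, 15.6 and 15.6 CPM. The sensors Aim2 and Dhx58 had 23.6, 52.1, 23.4 and 47.0 CPM and 14.4, 9.25, 21.6 and 29.8 CPM. Tmem173 (STING), the adaptor of DNA sensing, had 95.8, 111, 40.6 and 57.0 CPM, and Irak1, a kinase of Toll-like receptor signalling, 112, 148, 66.2 and 136 CPM. Azi2, an adaptor of the kinase TBK1, had 222, 107, 57.2 and 86.6 CPM, and Unc93b1, which carries Toll-like receptors to endosomes, 62.4, 40.04, 74.97 and 140 CPM. Every library held reads of all these genes and of Irf3, except that Tlr9 had none in MNK-3 replicate 2.

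Interferon transcripts were barely detected. The 8 type I and III interferon genes summed to 6.57 CPM in MNK-3 replicate 1 and 0 in replicate 2, against 0.834 in NK and 0.793 in ILC2. With 0 reads for all 8 in replicate 2, a level of up to 0.233 CPM per gene is allowed, from 3 counts. Ifnl3 had the largest value, 1.5 CPM in replicate 1, the library that held reads in 95.6% of all genes.

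Of the interferon receptors and the parts of ISGF3 signalling other than IRF9, 0 of 9 passed in limma voom. At an unadjusted p under 0.05 there were 0 for MNK-3 minus NK, 1 (Jak2) for MNK-3 minus ILC2 and 1 (Ifngr1) for NK minus ILC2. The shares of all genes tested were 3.45%, 3.51% and 2.28%. Limma trend called Ifngr2 in both comparisons with NK. Ifngr1, the ligand-binding chain of the receptor for interferon gamma, had 904, 122, 185 and 407 CPM, with the order NK, MNK-3, ILC2 seen for Irf7, Irf8 and Irf9. Jak1 had 2955, 1004, 302 and 657 CPM and Jak2 173, 974, 74.2 and 151 CPM.

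Among 36 measured interferon-stimulated targets limma voom called 0 in any comparison. At an unadjusted p under 0.05 it had 2 for MNK-3 minus NK, 3 for MNK-3 minus ILC2 and 1 for NK minus ILC2. The shares of all genes tested were 3.45%, 3.51% and 2.28%. Limma trend called 0, 2 and 1, the last being Ifit2, an RNA-binding antiviral protein named after its value was seen, with 77.8, 5.29, 49.0 and 98.1 CPM. By size, 16 lay at least 2-fold higher in NK than in ILC2 and 2 lower, beside 15.7% and 15.2% of all genes tested. Of these targets, 3 (Rsad2, Oas2 and Ifi44) had under 20 reads in both libraries. The median log2 ratio of the 36 targets was 0.81, against 0.05 for all genes. It was 0.86 over 35 targets with those without a read at 3 counts. MNK-3 lay at least 2-fold higher than ILC2 for 15 and lower for 3, beside 39.8% and 8.63% of all genes (median 0.37, against 0.77). Without MNK-3 replicate 1 the counts were 13 and 4, beside 3271 and 3583 of the 25283 genes tested (median 0.47, against 0). Without replicate 2 they were 15 and 7, beside 13531 and 2845 of the genes tested. Against NK, MNK-3 lay higher for 7 and lower for 7, beside 35.0% and 7.23% of all genes. Without replicate 1 the counts were 7 and 11, beside 4703 and 5613 of the genes tested. Without replicate 2 they were 10 and 11, beside 12627 and 1984. The 2 targets lower in NK than in ILC2 were Bst2, which tethers virus particles, with 7.30, 35.7, 22.2 and 30.2 CPM, and Parp9, named after its value was seen, with 63.2, 129, 49.9 and 88.0 CPM.

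The targets with the highest level per kb of exon in any library were Psmb8 (109 CPM per kb), Ifi27 (51.1) and Samhd1 (45.5). Samhd1, which hydrolyses deoxynucleotides, had 416, 230, 83.8 and 180 CPM. Psmb8, an immunoproteasome subunit, had 221, 368, 153 and 325 CPM, and Ifi27 16.3, 19.7, 38.7 and 74.9 CPM. Of these only Samhd1 had its highest level in NK.

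The 2 targets whose promoters are shown above differed from each other. Ifit1, which binds foreign RNA, had 7.93 CPM in NK, no read in ILC2 and, in MNK-3, 4.37 and 5.83 CPM, which makes NK at least 20-fold higher than ILC2 (3 counts as the floor of the ILC2 library). Isg15, the ubiquitin-like modifier, had 1.67, 3.44, 7.54 and 12.6 CPM. The targets without a read in ILC2 were 5, named after their values were seen: Ifit1, Ifit3, Ifit3b, Oas2 and Ifi44.

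**Figure D5:**
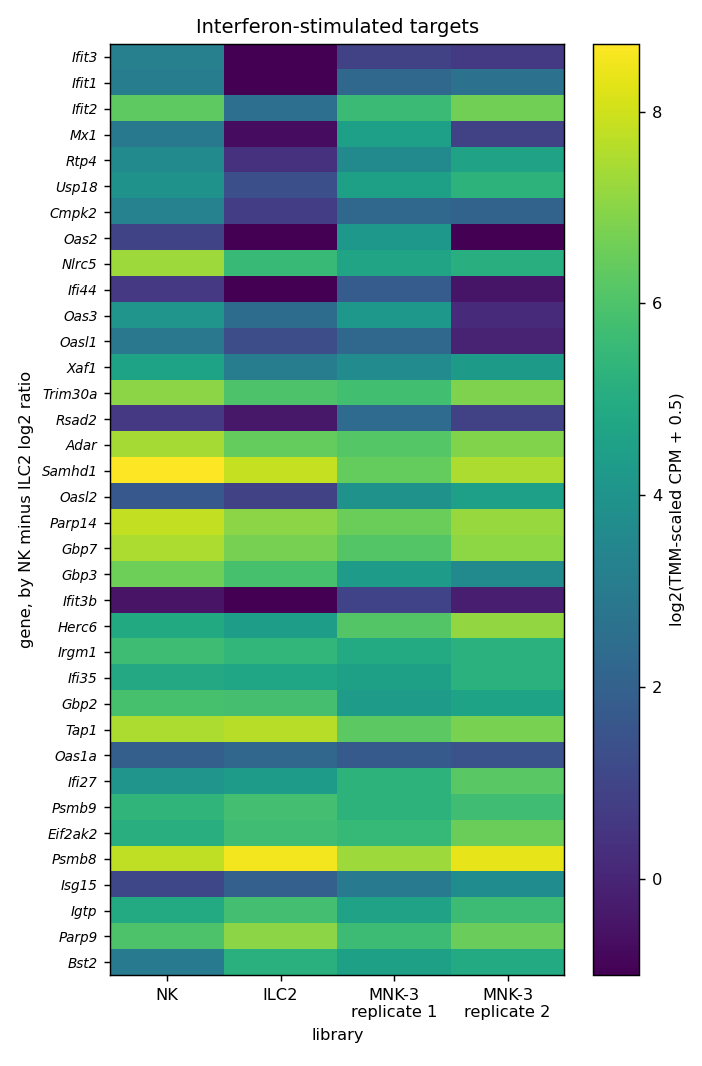
Levels of 36 interferon-stimulated targets as log2(TMM-scaled CPM + 0.5), with 1 column for each library and genes ordered by the NK minus ILC2 log2 ratio. Genes at the top, such as Ifit1 and Ifit2, are dark in ILC2 (0 and 5.29 CPM), and Bst2 at the foot is brighter in ILC2 (35.7 CPM) than in NK (7.30 CPM).

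The genes with the most similar profile were sought for the 4 members whose highest cell type was at least 4 times the lowest, by the distance between log2(CPM + 0.5) values centred over the 4 libraries, among 9911 genes with at least 20 CPM in a library. Nearest to Irf4 were Ptgir, a prostacyclin receptor (1.46, 125, 13.0 and 0.311 CPM), Pparg, a nuclear receptor of lipid metabolism (1.46, 110, 11.1 and 0.388 CPM), and Ccr4, a chemokine receptor (1.46, 83.3, 10.2 and 0.311 CPM), at distances of 1.04, 1.30 and 1.37. All 3 were, like Irf4, above 10 CPM in MNK-3 replicate 1 and under 1 CPM in replicate 2. The search over these same libraries selects for that split, so it does not bear separately on the Irf4 value. Nearest to Irf8 were Apol7e (64.3, 1.72, 3.93 and 6.84 CPM), the phosphatase gene Dusp5 (221, 10.3, 23.4 and 37.1 CPM) and Arhgef18 (844, 30.5, 57.2 and 77.8 CPM), at 0.213, 0.422 and 0.475. Nearest to Irf7 were Rab37, Mcoln2 and Dnajc15 (distances 0.228, 0.240 and 0.374), and nearest to Irf5 were Wwc2, Vps51 and Dlec1 (0.154, 0.305 and 0.313). With only 4 libraries these distances describe profiles and say nothing of shared control.

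In the genome (GRCm38, GENCODE M21 annotation) the members lie on 5 chromosomes. Irf2 (ENSMUSG00000031627, chromosome 8, 46739732 to 46847458, plus strand) and Irf8 (ENSMUSG00000041515, chromosome 8, 120736358 to 120756694, plus strand) share a chromosome. Irf3 (ENSMUSG00000003184, 44997648 to 45002848, plus strand) and Irf7 (ENSMUSG00000025498, 141262706 to 141266481, minus strand) both lie on chromosome 7. Irf4 (ENSMUSG00000021356) lies on chromosome 13, 30749226 to 30766976, plus strand. Irf5 (ENSMUSG00000029771) lies on chromosome 6, 29526625 to 29541871, plus strand. Irf9 (ENSMUSG00000002325) lies on chromosome 14, 55603571 to 55610030, plus strand.

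Besides Irf5, 3 members share exon bases with a neighbour. Irf9 shares 123 bases (2.28% of its exons) with Rnf31 on the same strand, Irf3 shares 88 bases (2.56%) with Bcl2l12 and Irf7 shares 45 bases (1.19%) with Phrf1, both on the opposite strand. The antisense genes Gm45479 and Gm31172 lie within Irf2 but share no exon base with it, and had 0.466 and 0.233 CPM in MNK-3 replicate 2. Gm20388, which overlaps Irf8 on the same strand, had no read in any library.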

How the data were processed

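RNA-seq of 4 libraries was used: 1 of NK cells, 1 of ILC2 and 2 of MNK-3. The submitters' processing notes name STAR 2.7.8a, HTSeq and the builds mm10 and GRCm38. Strand setting and gene set are not given in the sources used here. The deposited values, in a unit recorded as other, are whole-number HTSeq counts per gene, not normalized. Per the labels' protocols technical replicates were made, and whether they were pooled is not known. Entries that name no gene held 25.9% to 76.5% of reads and were left out, as were genes absent from any table (0.0399% to 3.05% of gene reads).

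CPM were computed over the 30731 shared genes and scaled by own TMM code (factors 1.03 for NK, 0.814 for ILC2, 1.40 and 0.848 for MNK-3). The test was limma voom (limma 3.58.1, R 4.3.3), two-sided, on genes kept by a filter (at least 10 reads, scaled to the library, and 15 in all). Its prior degrees of freedom were infinite, so SEs rest on the spread pooled over genes. The code of the fit was tried on simulated counts. These held no gap between the MNK-3 libraries that changes with level, so the trial does not bear on such a gap. Log2 ratios used CPM + 0.5 and the mean of the MNK-3 pair. Counting intervals are at 95%. The members, gene lists and tests were chosen with earlier results of these data known. Named genes are the members, list genes called in any comparison, up to 4 others per list with the highest CPM per kb in any library, the 3 nearest profiles and overlapping neighbours, and exceptions are marked. Some list genes are not reported here. Alternatives were other scalings, filters, pseudocounts, depths, tests and left-out libraries.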

Additional observations from a re-analysis of the deposited data

How the results depend on the processing

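The limits are 1 library each for NK and ILC2, an MNK-3 pair that differs between its libraries, and few reads for Irf4 in NK (10) and in MNK-3 replicate 2 (1). Genes called by limma voom with TMM for MNK-3 minus NK were 132, and 590 on library totals, 87 with factors from abundant genes, 525 after thinning and 763 with limma trend. For MNK-3 minus ILC2 they were 83, and 828 on library totals, 50 with median-of-ratios factors, 244 with factors from abundant genes, 126 without the filter, 241 after thinning and 398 with limma trend. For NK minus ILC2 they were 0, and 328 on library totals, 40 with factors from abundant genes, 39 without the filter, 198 after thinning and 435 with limma trend.

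Members called, 0 with limma voom and TMM, were 2 for MNK-3 minus NK on library totals (Irf2 and Irf8) and 1 after thinning and with limma trend (Irf8). They were 1 for MNK-3 minus ILC2 after thinning and with limma trend (Irf4). They were 1 for NK minus ILC2 on library totals, without the filter and after thinning (Irf8), and 2 with limma trend (Irf4 and Irf8). Members at least 2-fold higher ranged from 0 to 1 for MNK-3 minus NK and from 1 to 2 for MNK-3 minus ILC2 when either MNK-3 library was left out.

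Signs turned for log2 values near 0 or resting on MNK-3 replicate 1. Irf3 for MNK-3 minus NK was -0.086 with median-of-ratios factors. Irf4 for MNK-3 minus NK was -0.34 with limma trend and -2.16 without MNK-3 replicate 1 (3.34 without replicate 2). Irf2 for MNK-3 minus ILC2 was -0.23 with median-of-ratios factors, -0.015 without the filter, -0.091 after thinning and -0.054 with limma trend. The unfitted log2 ratio of Irf3 for MNK-3 minus NK, 0.13, was -0.12 with median-of-ratios factors, -0.0015 after thinning and -0.13 without MNK-3 replicate 2. That of Irf2 for MNK-3 minus ILC2, -0.0087, was 0.37 on library totals, 0.39 with factors from abundant genes, 0.31 without MNK-3 replicate 1 and 0.018 with totals over every listed gene. The cause was not tested. Of the other settings for single members, 281 kept the sign and the side of the threshold or stayed within the spread or counting interval. Another 44 moved further than that, and 11 passed the threshold only under the alternative. The spread was the SD of the gene's own MNK-3 pair in log2, which was 3.89 for Irf4 and 0.07 for Irf7. The tally is therefore lenient for Irf4 and strict for Irf7, and does not measure robustness. The order of the cell types was that of the main scaling for 5 to 7 of 7 members in every setting, and for Irf5, Irf7, Irf8 and Irf9 in all of them. No paired analysis was possible because only MNK-3 has more than 1 library. With either MNK-3 library left out no residual degrees of freedom remain, so only sizes were recomputed.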

Other observations

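Some genes around the IRF pathway, picked here after their values were seen, had patterns that the lists' counts do not show. Ifngr2, the signalling chain of the receptor for interferon gamma, had 3.34 CPM in NK against 56.4 in ILC2 and 47.1 and 94.8 in MNK-3, while Ifngr1 was highest in NK. Batf3, a partner of IRF8 in dendritic cells, had 22.0 and 45.9 CPM in the MNK-3 replicates against 3.34 in NK and 2.64 in ILC2, so that the NK library with the most Irf8 had little Batf3. Zbtb46, a marker of conventional dendritic cells, was likewise higher in both MNK-3 replicates (50.8 and 82.7 CPM) than in NK (12.1) and ILC2 (2.11). Usp18, an interferon-stimulated gene that limits interferon signalling, had 15.4 CPM in NK, 2.11 in ILC2 and 22.6 and 38.3 in MNK-3.

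Of 9 negative regulators of interferon signalling limma voom called 0 in any comparison. At an unadjusted p under 0.05 there were 1 for MNK-3 minus NK, 2 for MNK-3 minus ILC2 and 0 for NK minus ILC2. The shares of all genes tested were 3.45%, 3.51% and 2.28%. Limma trend called 2 (Socs3 and Usp18) for MNK-3 minus ILC2. Socs3 had 74.7 CPM in NK, 157 in ILC2 and 23.2 and 12.2 in MNK-3, and Peli1 had 205, 230, 45.4 and 67.4 CPM. Ptpn6, the phosphatase SHP-1, had 213, 163, 177 and 368 CPM, and Ptpn2 86.4, 173, 55.0 and 113 CPM.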
